A study of Mus musculus with 5 samples.

Results

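The genes described here are the receptors for estradiol (Esr1), progesterone (Pgr), glucocorticoids (Nr3c1) and mineralocorticoids (Nr3c2), together with Greb1. They were chosen by symbol, which gave 5 genes of the 27998 in the count files, and all 5 had UMIs in every library. Mammary glands of 30-week-old BALB/cj mice whose ovaries had been removed were profiled by scRNAseq, with 1 library for each of 5 treatments. Treatment began 20 weeks after ovariectomy and lasted for 1 week, and how many mice were behind each library was not given in the sources used here. The groups were Vehicle, E2 (estradiol, 1 µg for each animal daily), E2+PBDE, E2+P4 (with progesterone, 0.1 mg for each animal daily) and E2+P4+PBDE. PBDE stands for a mixture of brominated flame retardants given in the food, with BDE-47 at 7.1, BDE-100 at 0.4 and BDE-153 at 0.9 mg per kg, and the other groups had matched food with DMSO. Each barcode stands for a droplet that the authors called as a cell.

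Steroid receptors are transcription factors that lie inactive with chaperones such as Hsp90 until a hormone binds them, after which they bind DNA as dimers and recruit coactivators or corepressors. In the mammary gland, Esr1 and Pgr are known from the luminal hormone-sensing cells (L-Hor), which answer estradiol and progesterone and signal to their neighbours through amphiregulin, Wnt4 and RANKL. Nr3c1 is present in most cell types, and Nr3c2 binds both aldosterone and glucocorticoids. Greb1 encodes a cofactor of the estrogen receptor and, like Pgr, is a textbook estrogen target.

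On mm10 (GRCm38), Esr1 (ENSMUSG00000019768) lay on chromosome 10 from 4611593 to 5005614 on the plus strand, Pgr (ENSMUSG00000031870) on chromosome 9 from 8899833 to 8968611 on the plus strand, Nr3c2 (ENSMUSG00000031618) on chromosome 8 from 76899442 to 77245012 on the plus strand, and Greb1 (ENSMUSG00000036523) on chromosome 12 from 16670615 to 16800886 on the minus strand. The longest annotated proteins had 599 residues for Esr1, 926 for Pgr, 984 for Nr3c2 and 1954 for Greb1. The reads came from the 3′ ends of transcripts, so the counts did not tell start sites or isoforms apart.

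The 250 bases before the start of Pgr and of Greb1 are shown because these genes are the textbook estrogen targets among the members. Both windows, from RefSeq (GRCm38.p6), lay outside annotated exons, Pgr at chr9:8899583-8899832 on the plus strand and Greb1 at chr12:16800887-16801136 on the minus strand. The capitals mark a GC box (GGGCGG on either strand) in Pgr and an estrogen response element half-site (GGTCA, or TGACC on the other strand) in Greb1.
Pgr: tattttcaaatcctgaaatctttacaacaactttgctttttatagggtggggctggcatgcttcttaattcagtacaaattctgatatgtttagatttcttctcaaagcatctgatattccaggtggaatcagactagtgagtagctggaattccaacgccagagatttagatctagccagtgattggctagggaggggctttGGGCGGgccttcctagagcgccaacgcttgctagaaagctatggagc
Greb1: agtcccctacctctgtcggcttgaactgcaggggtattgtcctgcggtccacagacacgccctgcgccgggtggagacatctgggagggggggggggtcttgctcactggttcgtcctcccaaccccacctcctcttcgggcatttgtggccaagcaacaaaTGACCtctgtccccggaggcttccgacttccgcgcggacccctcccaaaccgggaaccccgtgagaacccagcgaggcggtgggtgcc
The GC box began 47 bases before the start of Pgr and the half-site 88 bases before the start of Greb1. Of 32851 RefSeq windows of this length, 32.7% held a GC box and 35.2% a half-site. The palindrome of the estrogen response element, GGTCANNNTGACC, was in 0.0639% of all windows, and the element that binds the progesterone, glucocorticoid and mineralocorticoid receptors, GNACANNNTGTNC, in 0.387%, and neither window held them. RefSeq windows were matched for 4 of the 5 members. Greb1 had a further window at chr12:16757240-16757489, which overlapped an exon and held half-sites 194 and 85 bases before its start. The Nr3c2 window held half-sites too, 135 and 49 bases before its start, and GC boxes, while the Esr1 windows held none of these motifs. The Nr3c2 and Esr1 windows also overlapped annotated exons, unlike the 2 windows shown.

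The libraries held 2233 to 3536 barcodes with a median of 5345 to 8698 UMIs, and pairs of libraries shared 3 to 15 barcode sequences. Clusters were built library by library, with the members and all listed genes left out of the variable genes, and were named from markers. L-Hor-like clusters, with Ly6d, Prlr, Cited1, Prom1 and Cxcl15, held 92 barcodes in Vehicle, 468 in E2, 610 in E2+PBDE, 748 in E2+P4 and 603 in E2+P4+PBDE. Clusters with markers of both luminal lineages, called mixed luminal, held 195, 372, 502, 410 and 511 barcodes in the same order, with medians of 15009 to 25519 UMIs, above every L-Hor-like cluster. They were not 1 cell type: the Vehicle cluster was led by alveolar genes such as Csn3, Plet1 and Ltf, E2 and E2+P4+PBDE had 1 cluster each with genes of both lineages, and E2+PBDE and E2+P4 had 1 led by alveolar genes (Ltf, Plet1) and 1 with L-Hor genes (Prlr, Ly6d). Values of mixed luminal cells in different libraries are therefore from different clusters. In its E2 sample the paper considered a luminal cluster of high UMI counts to hold doublets of L-Hor and L-Alv cells, and removed it. Whether the mixed luminal barcodes here were doublets was not tested. Vehicle had no cluster named luminal alveolar (L-Alv), and the endothelial-like clusters (27 to 72 barcodes) also carried pericyte markers. Levels are in CPM, the UMIs of a gene per 1000000 UMIs of a class, with 95% intervals that cover counting error only. Each group was a single library, so no difference between groups could be tested against the spread between mice, and treatment and preparation cannot be told apart.

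Each member had its own place among the cell classes (the plot of levels by class). Esr1 was shared by L-Hor-like and fibroblast-like cells, and Pgr was highest in L-Hor-like cells of every library. Nr3c1 was highest in endothelial-like cells and lowest in L-Hor-like cells, except that the proliferating luminal cells of E2+P4+PBDE were lower still, on 6 UMIs. Nr3c2 was low everywhere, and Greb1, though rare, had its highest level in endothelial-like cells, beyond counting error of the next class in E2 and E2+PBDE but not in Vehicle, E2+P4 (where it rested on 1 UMI) or E2+P4+PBDE. Levels of different genes were not compared with each other.

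**Figure D1:**
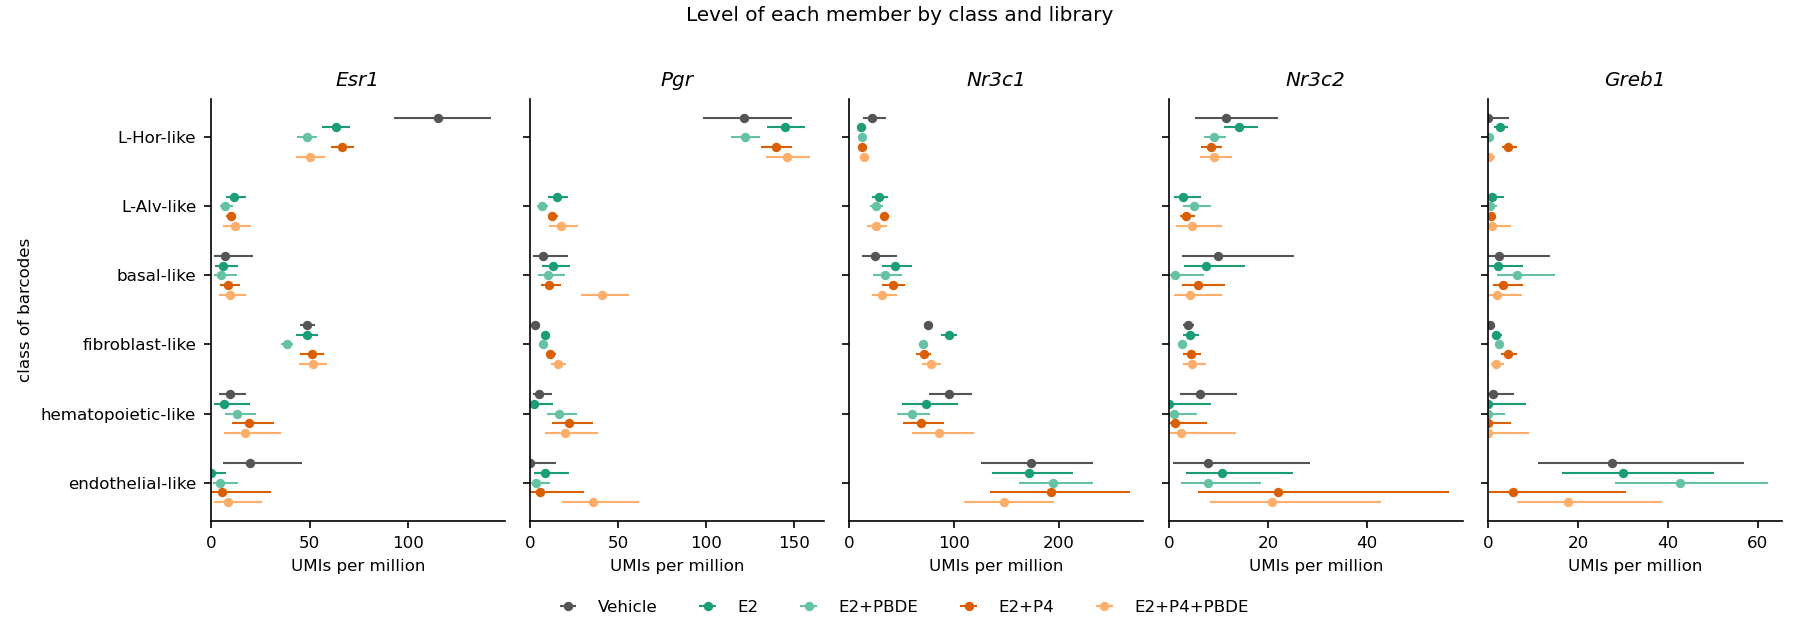
Level of each member in CPM (x axes, each with its own range, UMIs per 1000000) by class of barcodes (y axis), with 1 point per library and bars for exact Poisson 95% intervals. Esr1 is highest in L-Hor-like cells of Vehicle at 115, Pgr lies between 122 and 146 in L-Hor-like cells, and Nr3c1 lies between 148 and 195 in endothelial-like cells; classes with no cluster in a library have no point.

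Esr1, the receptor through which estradiol acts on the gland, was at 115 CPM (92.5 to 142, 89 UMIs) in L-Hor-like cells of Vehicle. It was at 63.1 (56.3 to 70.6) in E2, 48.6 (43.6 to 54.0) in E2+PBDE, 66.5 (60.7 to 72.7) in E2+P4 and 50.2 (43.2 to 58.0) in E2+P4+PBDE. Vehicle thus lay above all 4 libraries with estradiol, and among these 4 both with PBDE lay below both without it. In mixed luminal cells the level was 96.3 in Vehicle, 46.9 in E2, 34.7 in E2+PBDE, 44.7 in E2+P4 and 37.9 in E2+P4+PBDE. Vehicle was again highest and both libraries with PBDE were lowest, but here E2 lay above E2+P4.

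The ratio of Esr1 in L-Hor-like cells, E2 against Vehicle, was 0.548 (0.432 to 0.702). The median of all 7348 genes in this comparison was itself -0.23 on the log2 scale, and 9.85% of genes lay at or below Esr1. With the libraries scaled by the median ratio the Esr1 ratio was 0.645. E2+PBDE against E2 gave 0.769 (0.658 to 0.900) and E2+P4+PBDE against E2+P4 gave 0.755 (0.634 to 0.896). Here the medians of all genes were -0.15 and -0.10, and 20.7% and 19.7% of genes lay at or below Esr1. With median-ratio scaling the ratios became 0.856 (0.732 to 1.00), whose interval reached 1, and 0.810 (0.680 to 0.962). Addition of progesterone left the interval around 1, at 1.05 (0.911 to 1.22) without PBDE and 1.03 (0.860 to 1.24) with it.

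With every cell thinned to 3000 UMIs, an Esr1 UMI was found in 27.2% (18.4 to 37.4) of L-Hor-like cells of Vehicle, 17.1% (13.8 to 20.8) of E2, 15.4% (12.6 to 18.5) of E2+PBDE, 18.4% (15.7 to 21.4) of E2+P4 and 13.8% (11.1 to 16.8) of E2+P4+PBDE. Without thinning the shares were 59.8%, 45.7%, 44.3%, 46.1% and 26.9%, at median depths of 6540, 9487, 10462, 8936 and 5557 UMIs. Vehicle was again highest and the libraries with PBDE lowest, but the thinned intervals of Vehicle and E2 overlapped. So did those of E2 and E2+PBDE, and those of E2+P4 and E2+P4+PBDE. Fibroblast markers in these L-Hor-like cells summed to 2738 CPM in Vehicle, 1724 in E2, 1750 in E2+PBDE, 925 in E2+P4 and 1359 in E2+P4+PBDE, and dissociation stress genes to 6567, 5131, 4916, 5377 and 3824. Both were highest in Vehicle, and their part in the Esr1 result was not tested.

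In fibroblast-like cells Esr1 was at 48.7 (45.1 to 52.5) in Vehicle, 48.5 (43.4 to 54.1) in E2, 38.5 (35.3 to 41.8) in E2+PBDE, 51.0 (45.3 to 57.2) in E2+P4 and 51.5 (44.7 to 59.0) in E2+P4+PBDE. Vehicle and E2 did not differ beyond counting error, at a ratio of 0.996 (0.869 to 1.14), while E2+PBDE lay below the other 4. E2+PBDE against E2 gave 0.793 (0.690 to 0.913). The median of all genes in that comparison was itself -0.17 on the log2 scale, and 25.7% of genes lay at or below Esr1. Whether the E2 against Vehicle ratio differed between L-Hor-like and fibroblast-like cells was not tested; the 2 counting intervals did not overlap. Free RNA from luminal cells was gauged by the summed L-Hor markers, which in fibroblast-like cells reached 0.786% to 3.86% of their level in L-Hor-like cells. At that rate free RNA would give 0.847 to 2.57 CPM of Esr1, under the 38.5 to 51.5 measured.

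Within the stroma Esr1 was uneven (the plot of fibroblast-like clusters). The clusters with Pi16, a marker of adventitial fibroblasts, among their first 2 leading genes were at 58.5 (53.1 to 64.2) in Vehicle, 62.6 (55.3 to 70.7) in E2, 45.7 (39.9 to 52.1) in E2+PBDE, 66.9 (57.9 to 76.8) in E2+P4 and 57.7 (49.4 to 67.1) in E2+P4+PBDE. The clusters with Mfap4, Spon1 and Crabp1 among their leading genes were at 24.8 (12.4 to 44.4) in Vehicle, 20.3 (13.3 to 29.8) in E2, 17.9 (12.4 to 25.0) in E2+PBDE and 17.3 (9.21 to 29.6) in E2+P4. In E2+P4+PBDE the Mfap4 genes fell in a cluster led by Col1a1, at 34.5 (24.3 to 47.5). In every library the Pi16 cluster lay above that other cluster and the intervals did not overlap. Nr3c1 was at 69.8 to 103 in the Pi16 clusters and 55.9 to 81.2 in those with Mfap4, Spon1 and Crabp1, and only in E2 were these intervals apart. Pgr was highest in the Pi16 cluster of each library, at 3.59 in Vehicle, 11.8 in E2, 9.76 in E2+PBDE, 14.4 in E2+P4 and 17.8 in E2+P4+PBDE. Only in E2 was its interval apart from those of all other fibroblast-like clusters.

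**Figure D2:**
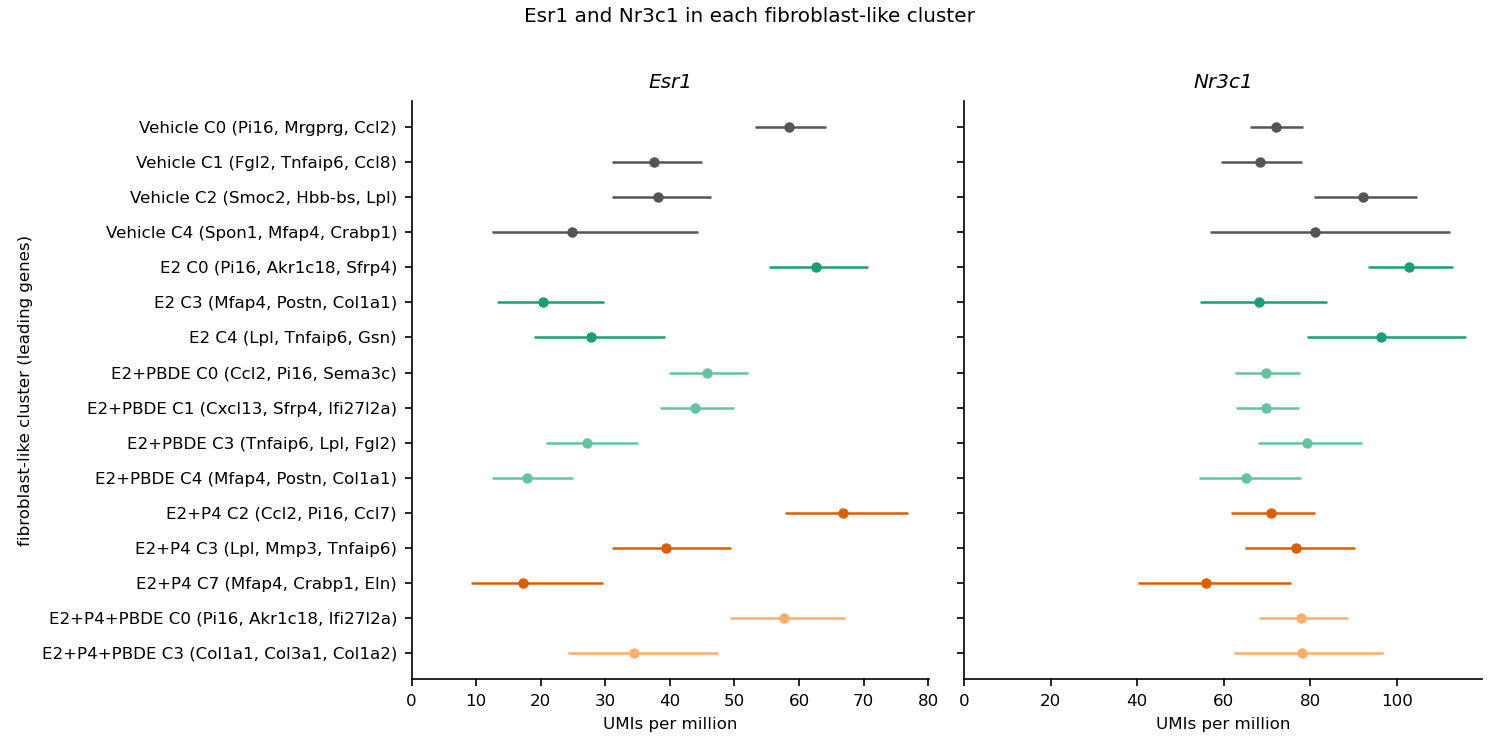
Esr1 (left) and Nr3c1 (right) in CPM (x axes, UMIs per 1000000) in each fibroblast-like cluster (y axis, with library, cluster number and 3 leading genes); bars are exact Poisson 95% intervals and colours are libraries. Esr1 is between 45.7 and 66.9 in the clusters with Pi16 among the genes shown and between 17.3 and 24.8 in those with Mfap4, Spon1 and Crabp1 among their leading genes (34.5 in the Col1a1 cluster), while Nr3c1 lies between 55.9 and 103 over all clusters.

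Esr1 was low in the other classes, at 7.21 to 12.04 in L-Alv-like, 5.09 to 9.47 in basal-like, 6.87 to 19.2 in hematopoietic-like and 0 to 19.7 in endothelial-like cells. In the hematopoietic-like cells this was 3 to 14 UMIs a library and in the endothelial-like cells 0 to 5. The proliferating luminal clusters, found in the 4 libraries with estradiol, were in between at 16.8 to 32.6.

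Pgr, the progesterone receptor, was in L-Hor-like cells at 122 (98.3 to 149, 94 UMIs) in Vehicle, 145 (135 to 156) in E2, 122 (114 to 131) in E2+PBDE, 140.0 (131 to 149) in E2+P4 and 146 (134 to 159) in E2+P4+PBDE. The ratio of E2 against Vehicle was 1.19 (0.961 to 1.49), whose interval holds 1. With median-ratio scaling it was 1.40 (1.13 to 1.76) and with the mixed luminal cells added 1.44, so that whether 1 lay within counting error depended on these choices. E2+P4+PBDE against E2+PBDE gave 1.196 (1.07 to 1.33) and E2+PBDE against E2 gave 0.844 (0.763 to 0.933), the only ones of the 5 comparisons whose interval left out 1 before such scaling. With it, the second was 0.939 (0.849 to 1.04) and E2+P4+PBDE against E2+P4 was 1.12 (1.01 to 1.25). Single L-Hor-like barcodes held up to 12 Pgr UMIs in E2 and 7 in E2+PBDE. These intervals take UMIs as independent and may therefore be too narrow. Thinned to 3000 UMIs, 33.7% (24.2 to 44.3) of L-Hor-like cells of Vehicle had a Pgr UMI, against 30.3% to 34.8% in the other 4 libraries.

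Over all barcodes of a library the picture for Pgr was different. Its level was 21.0 in Vehicle, 70.5 in E2, 51.9 in E2+PBDE, 58.2 in E2+P4 and 73.8 in E2+P4+PBDE, so E2 lay 3.36-fold (3.02 to 3.73) above Vehicle. L-Hor-like and mixed luminal barcodes, which carried 89.4% of the Pgr UMIs of Vehicle and 81.2% of those of E2, were 9.23% of the barcodes of Vehicle and 37.6% of those of E2. The level over all barcodes weights each barcode by its UMIs. Of all UMIs, these 2 classes held 772857 and 4162279 of 20293934 in Vehicle, and 4909173 and 10337559 of 29590862 in E2. Their share of UMIs thus differed less between these libraries than their share of barcodes. In a sum over all barcodes, as in bulk samples, fewer cells of a type and less RNA per cell cannot be told apart. By class, the ratio of E2 against Vehicle was 1.19 in L-Hor-like cells, as above, and 1.38 (1.21 to 1.58) in mixed luminal cells, at 94.9 and 69.0, where the Vehicle cluster was the one led by alveolar genes. Esr1 over all barcodes was 57.9 CPM in Vehicle and 43.1 in E2, and fibroblast-like cells held 56.9% of its UMIs in Vehicle and 25.3% in E2. These cells were themselves 2566 of the 3109 barcodes of Vehicle and 937 of the 2233 of E2. They held 13740679 and 6660421 UMIs of all genes.

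**Figure D3:**
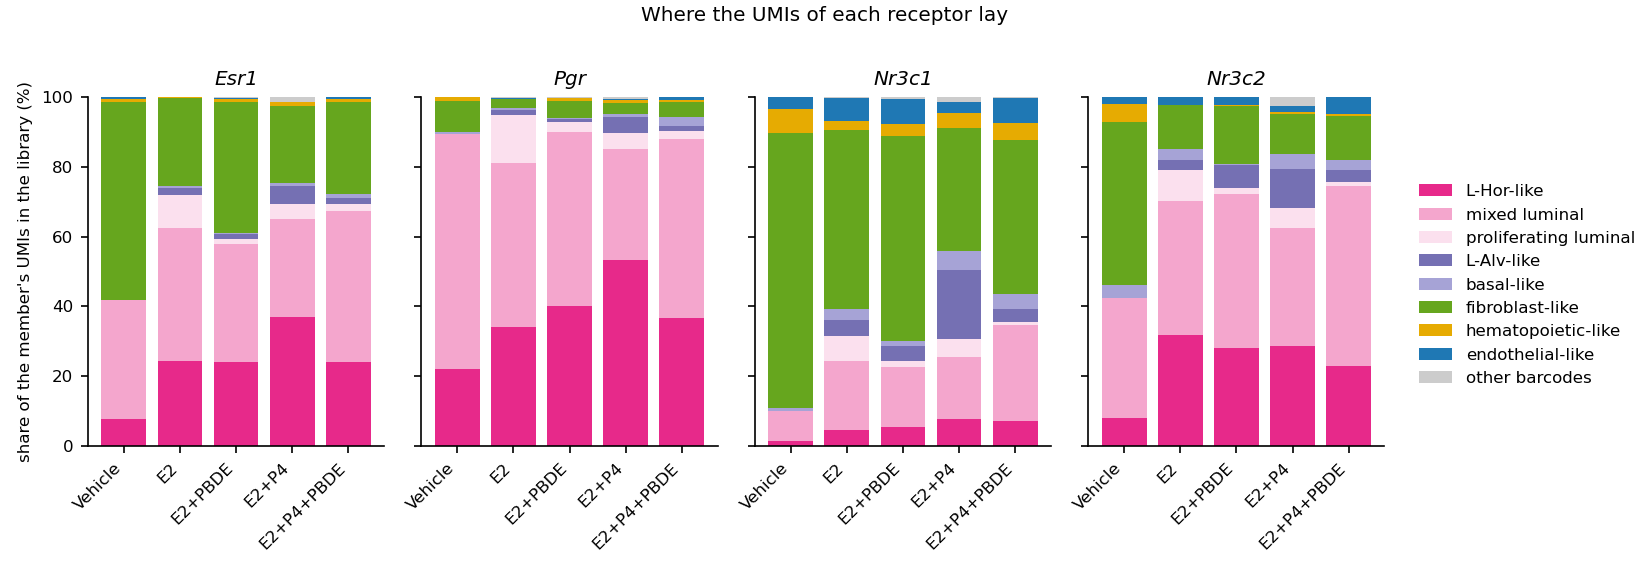
Share of the UMIs of each receptor (y axis, percent of that gene's UMIs in the library) by class of barcodes (colours), for the 5 libraries (x axis). Fibroblast-like cells hold 56.9% of the Esr1 UMIs of Vehicle and 25.3% of those of E2, L-Hor-like and mixed luminal cells hold most Pgr UMIs in every library, and fibroblast-like cells hold 35.2% to 79.1% of the Nr3c1 UMIs. The shares are not corrected for the size of each class, which differs between libraries.

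In fibroblast-like cells Pgr was at 2.69 (1.90 to 3.71) in Vehicle, 8.41 (6.35 to 10.9) in E2, 7.54 (6.18 to 9.11) in E2+PBDE, 11.4 (8.76 to 14.5) in E2+P4 and 15.7 (12.1 to 20.1) in E2+P4+PBDE. Vehicle was lowest and both libraries with progesterone were highest. The ratios were 3.12 (2.03 to 4.87) for E2 against Vehicle and 2.09 (1.51 to 2.88) for E2+P4+PBDE against E2+PBDE. For E2+P4 against E2 the ratio was 1.35 (0.930 to 1.97), whose interval holds 1. The level that free luminal RNA would give moved with these values, at 0.956, 3.07, 2.13, 5.40 and 5.33 in the order Vehicle, E2, E2+PBDE, E2+P4 and E2+P4+PBDE, and its part in the result was not tested. The Pgr counts lay above this gauge in all 5 libraries. In L-Alv-like cells the level was 6.53 to 17.6, where free RNA would give 4.28 to 8.32. The basal-like cluster of E2+P4+PBDE reached 41.1 (29.2 to 56.1), where the L-Hor markers were at 15.2% of their L-Hor-like level and free RNA at that rate would give 22.2. In the same library these markers were at 3.64% in fibroblast-like, 5.69% in L-Alv-like, 6.62% in endothelial-like and 7.77% in hematopoietic-like cells. Why the markers were higher in the basal-like cluster was not tested. Pgr in the basal-like clusters of the other 4 libraries was at 7.40 to 12.8. In endothelial-like cells E2+P4+PBDE was also the highest, at 35.5 (18.4 to 62.1, 12 UMIs) against 0 to 8.58 in the other 4, with a gauge of 9.69, but its interval overlapped those of E2 and E2+P4.

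Esr1 and Pgr UMIs were neither clearly together nor clearly apart in single L-Hor-like cells. Among thinned cells with an Esr1 UMI, 24.0%, 26.2%, 30.9%, 26.1% and 37.3% had a Pgr UMI in Vehicle, E2, E2+PBDE, E2+P4 and E2+P4+PBDE, and among cells without one 37.3%, 31.2%, 30.2%, 32.6% and 34.4%. The intervals overlapped in every library, the widest being that of the 25 thinned cells of Vehicle with an Esr1 UMI (9.36% to 45.1%). A finer clustering at resolution 1.0, which again left the members out, gave L-Hor-like clusters that differed in Pgr and whose Esr1 intervals overlapped. In E2, Pgr was at 165 (149.8 to 182) in a cluster with Dmbt1, Arg1 and Tmem158 leading and at 123 (109.4 to 138) in one with Jchain, Clec3b and Ccl2, while Esr1 was at 62.3 and 64.1. A further L-Hor-like cluster of E2, with 40 barcodes and Stmn1, Upk3a and Tipin leading, had the lowest Pgr, 121 (94.8 to 153). Its interval overlapped those of both others, and its leading genes held no fibroblast gene. E2+PBDE gave 135 (125 to 147) where Wfdc12, Aoc1 and Ido1 led and 101 (89.5 to 114) where Clec3b, Ifi27l2a and Ccl7 led. E2+P4 gave 151 (139 to 163) where Dmbt1, Ido1 and Alox15 led and 122 (111 to 134) where Ccl5, Ifi27l2a and Pcp4 led. The 40-barcode cluster of E2 aside, the Pgr intervals of the clusters named were apart in these 3 libraries. Of each such pair, the one with less Pgr had Clec3b, a gene of fibroblasts, among its leading genes. In E2+P4+PBDE the levels were 156 (136 to 179) where Fxyd2, Hbb-bs and 2210407C18Rik led and 139 (124 to 155) where Upk3a, Fgb and Stmn1 led. The intervals overlapped, and here the cluster with more Pgr had a fibroblast gene, Dcn, among its leading genes. At 3000 UMIs a cell that lacks a UMI cannot be read as lacking the receptor.

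Nr3c1 (ENSMUSG00000024431), the glucocorticoid receptor, lay on chromosome 18 from 39410545 to 39519421 on the minus strand of mm10, and its longest annotated protein had 793 residues. Among the classes it was at its highest in endothelial-like cells, with 174 (126 to 233) in Vehicle, 172 (136 to 214) in E2, 195 (162 to 233) in E2+PBDE, 193 (134 to 268) in E2+P4 and 148 (109.9 to 195) in E2+P4+PBDE. These 5 intervals all overlapped, with 35 to 123 UMIs behind each. In E2+P4+PBDE the interval also overlapped that of hematopoietic-like cells, 59.7 to 119. Between 40.6% and 55.6% of endothelial-like cells had an Nr3c1 UMI at 3000 UMIs, against 2.17% to 4.31% of L-Hor-like cells. L-Hor-like cells were at 22.0 (12.8 to 35.2) in Vehicle and between 11.2 and 13.5 in the other 4 libraries. L-Alv-like cells, at 25.0 to 33.5, lay above the L-Hor-like cells of the same library in all 4 libraries that had them; the intervals overlapped only in E2+P4+PBDE, where they were 16.5 to 36.4 and 10.0 to 17.8. The class with the most Pgr was thus among the lowest in Nr3c1, and over 33 profiles of library and class their log2 levels correlated at r = -0.73, a description of classes that share libraries and depth.

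In fibroblast-like cells Nr3c1 was at 75.4 (70.9 to 80.1) in Vehicle, 95.04 (87.8 to 103) in E2, 70.7 (66.4 to 75.2) in E2+PBDE, 70.9 (64.1 to 78.2) in E2+P4 and 77.98 (69.6 to 87.1) in E2+P4+PBDE. E2 was above each of the other 4, with ratios of 1.26 (1.14 to 1.39) against Vehicle and, for the libraries set against it, 0.746 (0.656 to 0.847) for E2+P4 and 0.744 (0.673 to 0.823) for E2+PBDE. In the last of these the median of all genes was -0.17 on the log2 scale, and median-ratio scaling gave 0.837. Since E2 was a single library and entered all 3 comparisons, they share it.

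Hematopoietic-like cells were at 59.8 to 94.99. Split after the values had been seen by whether a barcode had more UMIs of T and NK markers or of myeloid markers (at least 2), the lymphoid barcodes of Vehicle were at 187 (138 to 246, 46 barcodes) and the myeloid ones at 51.8 (35.0 to 74.0, 100 barcodes). The lymphoid level was above the myeloid one in all 5 libraries, at 113 and 61.2 in E2, 121 and 39.3 in E2+PBDE, 192 and 44.3 in E2+P4 and 107 and 82.1 in E2+P4+PBDE. The intervals were apart in Vehicle, E2+PBDE and E2+P4, and elsewhere they overlapped, with 10 lymphoid barcodes in E2 and in E2+P4+PBDE. The lymphoid level of Vehicle was above that of its endothelial-like cells, 174, and that of E2+P4 was close to their 193. In the other libraries it was lower.

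Nr3c2, the mineralocorticoid receptor, was scarce, with 113 to 231 UMIs in a whole library. In L-Hor-like cells it was at 11.6 (5.32 to 22.1, 9 UMIs) in Vehicle, 14.3 (11.1 to 18.0) in E2, 9.10 (7.02 to 11.6) in E2+PBDE, 8.43 (6.45 to 10.8) in E2+P4 and 9.18 (6.35 to 12.8) in E2+P4+PBDE. E2 was the highest of the 5, with ratios of 0.591 (0.412 to 0.845) for E2+P4 and 0.638 (0.448 to 0.907) for E2+PBDE against it. With the mixed luminal cells added the first of these was 0.854. With median-ratio scaling they were 0.626 (0.437 to 0.895) and 0.710 (0.499 to 1.01), and the second interval holds 1. Fibroblast-like cells were lower, at 2.68 to 4.75, and endothelial-like cells, at 7.89 to 22.0, rested on 2 to 7 UMIs per library. Hsd11b2, the enzyme that inactivates glucocorticoids and so keeps them from this receptor, had at most 2 UMIs in L-Hor-like cells of any library.

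Greb1 was the rarest member, with 20 UMIs in Vehicle, 60 in E2, 83 in E2+PBDE, 75 in E2+P4 and 22 in E2+P4+PBDE over all barcodes. In endothelial-like cells it was at 27.6 (11.1 to 56.9, 7 UMIs) in Vehicle, 30.0 (16.4 to 50.4, 14 UMIs) in E2, 42.8 (28.2 to 62.3, 27 UMIs) in E2+PBDE, 5.51 (0.139 to 30.7, 1 UMI) in E2+P4 and 17.8 (6.52 to 38.7, 6 UMIs) in E2+P4+PBDE. These UMIs came from 4, 11, 16, 1 and 6 barcodes. All 5 intervals overlapped, and E2+P4 had the fewest endothelial-like barcodes, 27. Hematopoietic-like cells, by contrast, had 1 Greb1 UMI in all 5 libraries.

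In L-Hor-like cells, Greb1 had 0 UMIs in Vehicle, 13 in E2, 2 in E2+PBDE, 33 in E2+P4 and 1 in E2+P4+PBDE. By barcodes this was 0 of 92 in Vehicle, which allows a share of up to 3.26% at the limit of 3 counts and 3.93% by the exact interval. It was 12 of 468 in E2 (2.56%, 1.33 to 4.44), 2 of 610 in E2+PBDE (0.328%, 0.0397 to 1.18), 19 of 748 in E2+P4 (2.54%, 1.54 to 3.94) and 1 of 603 in E2+P4+PBDE (0.166%, 0.00420 to 0.920). Among the libraries with estradiol, the 2 without PBDE thus lay above the 2 with it, and the intervals of E2 and E2+PBDE, and of E2+P4 and E2+P4+PBDE, did not overlap. Thinned to 3000 UMIs the shares were 0.855% in E2, 0.164% in E2+PBDE, 1.07% in E2+P4 and 0.166% in E2+P4+PBDE, again higher without PBDE, but these intervals overlapped. The ratio of levels was 0.106 (0.0116 to 0.467) for E2+PBDE against E2 and 0.0592 (0.00145 to 0.354) for E2+P4+PBDE against E2+P4. Of the 33 UMIs in E2+P4, 14 were in 3 barcodes, so the UMIs were not independent and the intervals of the levels are too narrow. Against Vehicle no fold was given in L-Hor-like cells, since 0 UMIs among so few cells did not show a lower level than in E2. In mixed luminal cells the levels were 0.961, 1.64, 0.709, 0.854 and 0.561 in the order Vehicle, E2, E2+PBDE, E2+P4 and E2+P4+PBDE, from 4 to 17 UMIs, with ratios of 0.431 (0.176 to 0.997) for E2+PBDE against E2 and 0.656 (0.164 to 2.40) for E2+P4+PBDE against E2+P4. In fibroblast-like cells these ratios were 1.41 (0.716 to 2.97) and 0.394 (0.144 to 0.937). In L-Hor-like cells both ratios were thus below 1, while in fibroblast-like cells they lay on either side of 1. The proliferating luminal clusters had 0 Greb1 UMIs in each of the 4 libraries that had them. In E2 this allows up to 0.7896 CPM at the limit of 3 counts and 0.971 by the exact interval.

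**Figure D4:**
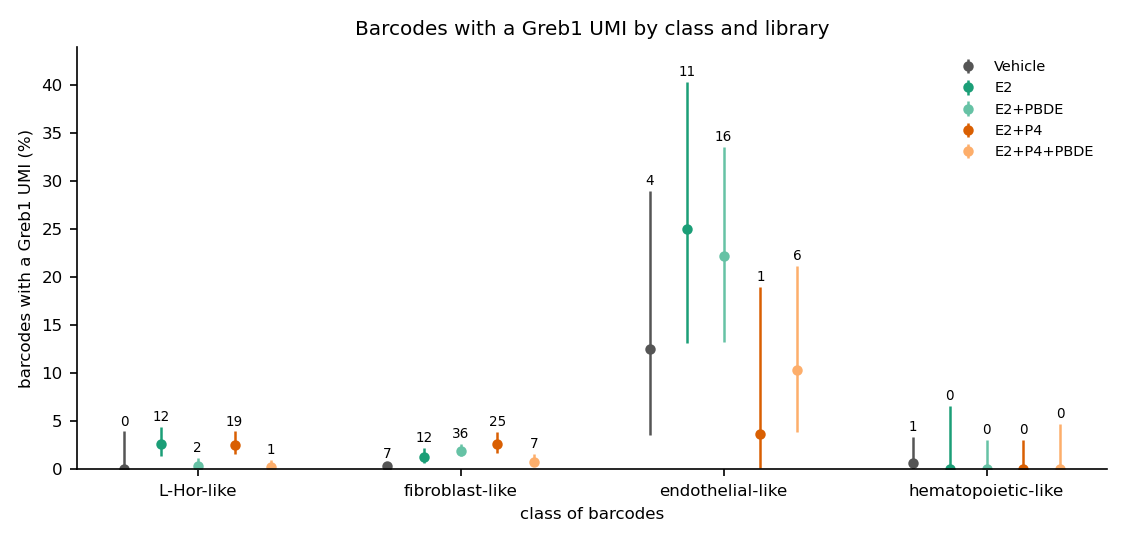
Share of barcodes with a Greb1 UMI (y axis, percent, no thinning) by class of barcodes (x axis) and library (colours), with exact Clopper-Pearson 95% intervals and the number of such barcodes above each. In L-Hor-like cells 12 and 19 barcodes of E2 and E2+P4 carry a UMI, against 0 in Vehicle and 2 and 1 in the libraries with PBDE; endothelial-like cells have the highest share in every library, from 27 to 72 barcodes.

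To set these ratios beside those of all genes, a gene was counted as past the fold at a ratio of 2 or more or of 0.5 or less, provided that the pair of libraries held 50 UMIs of it. In L-Hor-like cells 9.05% of genes were past the fold for E2 against Vehicle, 2.14% for E2+P4 against E2, 1.84% for E2+P4+PBDE against E2+PBDE, 1.79% for E2+PBDE against E2 and 3.16% for E2+P4+PBDE against E2+P4. Esr1, Pgr, Nr3c1 and Nr3c2 had enough UMIs, Greb1 did not, and 0 of the 4 were past the fold in any of these comparisons, which share libraries. The Nr3c1 ratio of 0.509 (0.291 to 0.936) for E2 against Vehicle, from 55 and 17 UMIs, came nearest. With median-ratio scaling it was 0.599 (0.343 to 1.10), whose interval holds 1. In fibroblast-like cells the same shares were 4.16%, 1.65%, 2.14%, 1.41% and 2.69%, and of the receptors with enough UMIs Pgr alone was past the fold, for E2 against Vehicle and for E2+P4+PBDE against E2+PBDE.

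**Figure D5:**
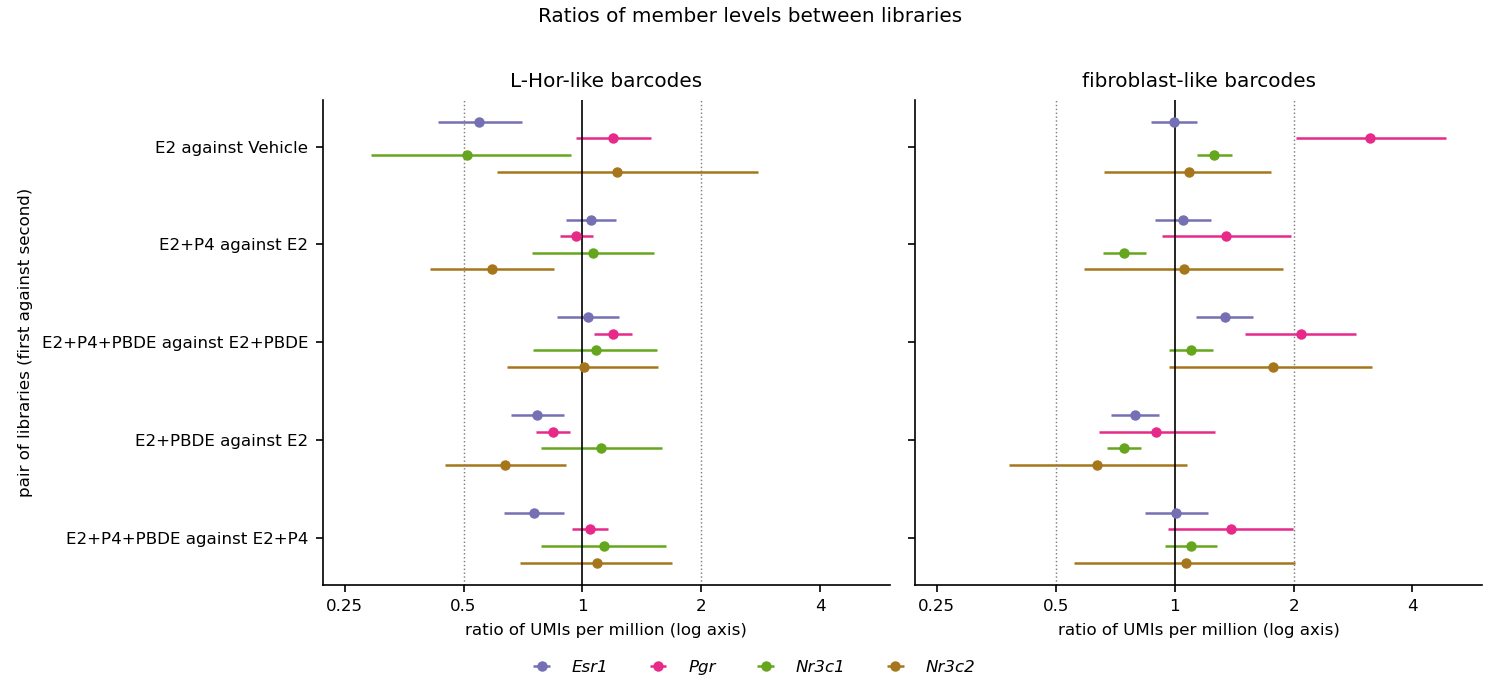
Ratios of CPM between pairs of libraries (x axes, log scale) for Esr1, Pgr, Nr3c1 and Nr3c2 in L-Hor-like (left) and fibroblast-like cells (right), by comparison (y axis), with exact conditional 95% intervals; dotted lines mark 0.5 and 2. All 4 receptors stay between the dotted lines in L-Hor-like cells, and Pgr is beyond 2 in fibroblast-like cells at 3.12 for E2 against Vehicle and 2.09 for E2+P4+PBDE against E2+PBDE.

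The other genes of these pathways are given for L-Hor-like cells, where estrogen response genes had members on both sides of the fold. For E2 against Vehicle, 10 of 19 listed estrogen response genes had enough UMIs, 2 were past the fold upward and 2 downward, and their median log2 ratio was 0.01 beside -0.23 for all genes. This list, with Pcp4 on it, was chosen with earlier results of these data known. Its counts are therefore a description and give no independent support for an estrogen response. Pcp4, a calmodulin-binding protein, went from 9.06 to 537 CPM, a ratio of 59.3 that rests on 7 UMIs in Vehicle, and Areg, which encodes the ligand amphiregulin, from 380.4 to 1499. Myc was lower at 0.371 and the chemokine Cxcl12 at 0.370. Pcp4 differed between the libraries with estradiol as well, at 114 in E2+PBDE, 238 in E2+P4 and 398 in E2+P4+PBDE. For E2+P4 against E2, 11 genes of this list had enough UMIs, 0 were past the fold upward and 2 downward (Pcp4 at 0.444 and the growth factor binding protein Igfbp4 at 0.489), with a median of -0.21 beside -0.08. In the other 3 comparisons 1 gene of 10 or 11 was past the fold: Pcp4 upward at 3.51 for E2+P4+PBDE against E2+PBDE, Pcp4 downward at 0.211 for E2+PBDE against E2, and Myb downward at 0.488 (14 and 56 UMIs) for E2+P4+PBDE against E2+P4.

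In L-Hor-like cells, of 9 listed progesterone response genes only Wnt4, the signal that L-Hor cells send to basal cells, had enough UMIs. It was at 56.9 in Vehicle, 40.7 in E2, 54.9 in E2+PBDE, 82.5 in E2+P4 and 77.7 in E2+P4+PBDE, so both libraries with progesterone were the highest. The ratios were 2.02 for E2+P4 against E2 and 1.42 for E2+P4+PBDE against E2+PBDE. Tnfsf11, which encodes RANKL, had 0 to 4 UMIs in L-Hor-like cells of a library.

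In L-Hor-like cells, 9 or 10 of the 12 glucocorticoid response genes measured had enough UMIs. For E2 against Vehicle 0 were past the fold upward and 1 downward (Errfi1, a feedback inhibitor of the EGF receptor, at 0.471). The median was -0.46 beside -0.23 for all genes. For E2+P4 against E2 1 was past it upward (the stress gene Ddit4 at 2.35) and 0 downward, with a median of 0.14 beside -0.08. For E2+P4+PBDE against E2+P4 0 were past it upward and 1 downward (Ddit4 at 0.388), with a median of -0.52 beside -0.10 for all genes. The other 2 comparisons had 0 past the fold in either direction. Their medians were -0.28 beside -0.03 for E2+P4+PBDE against E2+PBDE and -0.0017 beside -0.15 for E2+PBDE against E2. The dissociation stress list had 0 of 9 genes past the fold in any comparison in L-Hor-like cells. Its medians were -0.29 for E2 against Vehicle, 0.17 for E2+P4 against E2 and -0.33 for E2+P4+PBDE against E2+P4. For E2+P4+PBDE against E2+PBDE the stress median was -0.38, and for E2+PBDE against E2 it was -0.013. The stress medians have the signs of the glucocorticoid list, and their part in the result was not tested.

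In L-Hor-like cells, of 17 chaperones and coregulators 0 were past the fold in 4 comparisons and 1 downward for E2+PBDE against E2 (the coactivator Ncoa3, from 29.7 to 11.2, a ratio of 0.377). Medians for this list lay between -0.35 and -0.04, where those of all genes lay between -0.23 and -0.03. Among the factors that open chromatin for the estrogen receptor, Foxa1 was at 99.6 in Vehicle, 140.4 in E2, 146 in E2+PBDE, 179 in E2+P4 and 189 in E2+P4+PBDE, and Gata3 at 169.5, 223, 222, 197 and 212. Neither was past the fold in any comparison in these cells, and Tfap2c, at 2.03 for E2+P4 against E2 from 39 and 13 UMIs, was the only member of that list that was past it there. Of the list of mineralocorticoid response and corticosteroid metabolism 0 genes were, in the same cells, past the fold in 4 comparisons and 1 downward for E2+P4+PBDE against E2+P4, the sodium channel subunit Scnn1b at 0.326 from 12 and 72 UMIs.

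Esr2, the other estrogen receptor, had 0 UMIs in L-Hor-like cells of every library.

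The genes whose levels most resembled those of a member over the 33 profiles were Il33, Clip4 and Anxa4 for Esr1 (r = 0.93, 0.93 and 0.89), and Wfdc2, Fam25c and Prlr for Pgr (r = 0.98, 0.96 and 0.96). Prlr is an L-Hor marker that named the clusters. For Nr3c1 they were Grasp, Fosl2 and Dennd5a (r = 0.95, 0.93 and 0.93), for Nr3c2 Usp46, Tcf12 and Sec63 (r = 0.88, 0.87 and 0.84), and for Greb1 Nup210l, Cacna1c and Cpeb4 (r = 0.86, 0.85 and 0.84, from 236 Greb1 UMIs). These profiles come from 5 libraries and share their depth and class structure, so the values are a description.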

How the data were processed

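Single-cell RNA was measured in 5 libraries, 1 per group. The authors ran Cell Ranger 2.0.0 against mm10, and the values they deposited are UMI counts per gene and barcode without normalization. The members and lists were chosen with earlier results of these data known. Barcodes with under 500 genes, under 1000 UMIs or over 10% mitochondrial UMIs were left out of the classes, but not of values over all barcodes. Each library was clustered with Seurat 5.3.0 in R 4.3.3 (log-normalization to 10000, 2000 variable genes without listed genes, 10 principal components, 20 neighbours, resolution 0.3 for Vehicle and 0.5 for the others) and clusters were named from markers; some naming limits were set after the clusters had been seen. Doublets were not removed in the main values; Scrublet in scanpy 1.11.5 (30 principal components, 20% of scores) served an alternative. Intervals (exact Poisson, Clopper-Pearson and conditional binomial, 95%) came from scipy 1.17.1 and cover counting error only, and a count of 0 was given the limit of 3 counts. Named genes were all members, the 3 genes with the highest Pearson correlation of log2(CPM + 1) with each member over profiles of at least 50 cells (among genes with at least 200 UMIs), and of each list at most 4 genes with the largest ratio in L-Hor-like cells. Hsd11b2, Tnfsf11 and Esr2 fell outside this rule and were named after their values had been seen, as was the split of hematopoietic-like cells. The list of other steroid receptors is otherwise not reported here. Gene positions came from GENCODE M21. Ratios and intervals were tested on simulated data with independent UMIs, which does not cover UMIs that lie together in single cells. Alternatives were added mixed luminal clusters, removal of high Scrublet scores, all barcodes, resolution 1.0, a mitochondrial limit of 5%, median-ratio scaling, no filter on UMIs and no thinning.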

Additional observations from a re-analysis of the deposited data

Results flagged for a closer look

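Pgr in mixed luminal cells differed in opposite directions under the same contrast, beyond counting error in each. E2+P4 against E2 gave a ratio of 0.781 (0.704 to 0.865), and E2+P4+PBDE against E2+PBDE gave 1.10 (1.004 to 1.21). Likewise E2+PBDE against E2 gave 0.811 (0.743 to 0.885), and E2+P4+PBDE against E2+P4 gave 1.15 (1.03 to 1.28). Both pairs of ratios come from the same 4 libraries, with levels of 94.9 in E2, 77.0 in E2+PBDE, 74.1 in E2+P4 and 84.9 in E2+P4+PBDE, so they are 1 pattern and not 2. The cells sat in different clusters: E2 and E2+P4+PBDE had 1 mixed luminal cluster each, E2+PBDE had 1 at 91.0 and an alveolar-led one at 64.2, and E2+P4 had 1 at 90.1 and an alveolar-led one at 55.6. Counting intervals take UMIs as independent, but single mixed luminal barcodes held up to 15 Pgr UMIs in E2 and 14 in E2+PBDE. The intervals may therefore be too narrow, and median-ratio scaling was not applied to this class. With 1 library per group the difference was not tested.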

How the results depend on the processing

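No paired analysis was possible because each group had 1 library, and for the same reason no library could be left out of a group. The ratios of Esr1 and Pgr in L-Hor-like cells stayed within their counting interval with mixed luminal clusters added, high Scrublet scores removed, resolution 1.0 and a mitochondrial limit of 5%. Pgr for E2 against Vehicle was 1.44 in the first of these and 1.40 with median-ratio scaling, whose own interval left out 1. That scaling moved 1 ratio out of its interval, Pgr for E2+PBDE against E2, to 0.939. Over all barcodes the Esr1 ratio was 0.744 for E2 against Vehicle and 0.977 for E2+P4+PBDE against E2+P4, and the Pgr ratio was 3.36 for E2 against Vehicle, 0.826 for E2+P4 against E2, 1.42 for E2+P4+PBDE against E2+PBDE, 0.736 for E2+PBDE against E2 and 1.27 for E2+P4+PBDE against E2+P4. Nr3c1 for E2 against Vehicle, higher in fibroblast-like cells, was 0.644 over all barcodes. Without the filter on UMIs the numbers of genes past the fold in L-Hor-like cells were 5964, 4067, 3815, 3770 and 3984, against 665, 197, 160, 163 and 280 (E2 against Vehicle, E2+P4 against E2, E2+P4+PBDE against E2+PBDE, E2+PBDE against E2, E2+P4+PBDE against E2+P4). Without thinning, the shares of L-Hor-like cells with a UMI were 59.8%, 45.7%, 44.3%, 46.1% and 26.9% for Esr1 and 56.5%, 67.9%, 69.3%, 63.6% and 55.7% for Pgr (Vehicle, E2, E2+PBDE, E2+P4, E2+P4+PBDE). Added after seeing the data, Greb1 in L-Hor-like cells was also counted without the 3 cells with most of its UMIs in each library, which left 9 UMIs in E2, 0 in E2+PBDE, 19 in E2+P4 and 0 in E2+P4+PBDE. The Greb1 ratio of E2+PBDE against E2 was 0.287 with mixed luminal clusters added and 0.974 over all barcodes, that of E2+P4+PBDE against E2+P4 was 0.183 and 0.479, and removal of high Scrublet scores left E2+P4+PBDE with 0 Greb1 UMIs in L-Hor-like cells. Counts of Greb1 and Nr3c2 limit what could be detected, and the 92 L-Hor-like cells of Vehicle set the widest intervals.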
